A study of Mus musculus with 6 samples.

Results

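The genes described here are 44 genes of autophagy and the lysosome, taken from a list of gene names; no measured value entered the rule, although the list was drawn up with earlier results of these data known. Mouse transcripts were matched to GENCODE M21 symbols, the values of all transcripts of a gene were added, and a gene was kept when its mean over the 6 libraries reached 1. Of the 44 genes, 43 were listed and all 43 passed that filter, among 10405 genes tested of 11236 listed. Ctsz, which encodes cathepsin Z, was not listed and has no value here. The autophagosome class holds 29 tested genes and the lysosome class 13, and Tfeb, a transcription factor, was placed in neither.

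RNA was sequenced from BUMPT cells, an immortalised mouse line derived from the proximal tubule of the kidney, in 2 groups of 3 libraries labelled NC and tRF-Val. The series concerns tRF-Val-TAC-004, a fragment cut from a valine transfer RNA, and asks for its downstream target in apoptosis; its title names renal ischemia-reperfusion injury and Apaf1. NC is not spelled out in the labels, which also leave unsaid whether cells were given the fragment or an inhibitor of it, and at what dose or time, so groups are called by their labels. All 6 libraries carry the same cell line label, and no label names separate cultures, so the p-values rest on differences between libraries that may be technical repeats.

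In macroautophagy, a double membrane grows around cytoplasm or a damaged organelle, closes into an autophagosome and fuses with a lysosome, where acid hydrolases digest the contents. The ULK1 kinase complex starts the process, a class III phosphatidylinositol 3-kinase complex marks the membrane, ATG2, ATG9 and WIPI proteins supply and shape it, and a ubiquitin-like conjugation system attaches proteins of the ATG8 family (LC3 and GABARAP) to it. Cargo receptors such as p62, the product of Sqstm1, bind both the cargo and the ATG8 proteins. In proximal tubule cells autophagy is known to clear damaged mitochondria after ischemia, and TFEB is known as a transcription factor of lysosomal and autophagy genes that binds E-box-type sequences in their promoters. The level of an mRNA does not measure the flow of material through the pathway.

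The promoter letters that TFEB-type factors are known to recognise are shown first. The rule did not read them, but such factors are known from genes of these same pathways. A higher share among the 44 genes is therefore not independent of how they were chosen. The background below is every gene with a promoter, whether or not it was listed in these data. RefSeq promoters on GRCm38.p6, from 250 bases before to 50 bases after each start site, were found for 36 of the 44 genes and were searched on both strands. The motif TCACGTG or its reverse complement CACGTGA was found in the promoters of 9 of the 36 genes (25%), against 4.29% of all 27025 genes with a promoter. Its palindromic form TCACGTGA lay in 5 of them (13.9%, against 1.13% of all genes), and the core CACGTG in 11 (30.6%, against 8.09%). The palindrome with G directly before it and C directly after it was in 0 of 36, against 0.37% of all genes. These motifs are nested, so each longer form is counted again in the shorter ones. The stretches below are given 5′ to 3′ on the strand of the gene, with capitals marking the motif. They are the 5 genes with the palindrome, then Lamp1, whose transcript is among those set apart below, and Atg14, whose motif lies at the annotated start of a transcript that was listed with values in NC alone.
Atg3: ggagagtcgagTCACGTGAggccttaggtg
Mcoln1: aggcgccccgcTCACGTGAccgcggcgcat
Ctsa: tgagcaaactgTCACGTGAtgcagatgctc
Ctsd: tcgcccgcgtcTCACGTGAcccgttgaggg
Gla: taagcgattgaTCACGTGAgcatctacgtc
Lamp1: agggcaagataTCACGTGgtccagcgccc
Atg14: aaacaaaatccCACGTGActggccctgag

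The Atg3 stretch is chr16:45158746-45158775 on the plus strand, with its motif 72 bases before the RefSeq start site. That of Mcoln1 is chr8:3500462-3500491 on the plus strand, 46 bases before the start site, and that of Ctsa is chr2:164833749-164833778 on the plus strand, 13 bases before it. That of Ctsd is chr7:142387908-142387937 on the minus strand, 99 bases before the start site. In GENCODE M21 these 3 stretches lie in the 5′ untranslated part of the first exon of Mcoln1-201, Ctsa-201 and Ctsd-202, whose starts are placed further upstream. The Gla stretch, chrX:134601215-134601244 on the minus strand, has its motif 228 bases before the Gla start site and lies in an untranslated exon of Hnrnph2 on the other strand. The Lamp1 stretch is chr8:13159088-13159116 on the plus strand, 62 bases before the start site, and the Atg14 stretch is chr14:47568418-47568446 on the minus strand, with its motif beginning 1 base before it. No M21 exon covers the Atg3 or Lamp1 stretch. Only 1 stretch is printed per gene. The Lamp1 promoter held 4 separate matches, those of Atg3, Mcoln1, Ctsa, Ctsd and Gla 2 each, and that of Atg14 1. A match of letters is a description and not a measured binding site.

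The libraries differed in ways that touch every result below. NC 3 stood apart: its gene values had a Pearson r of 0.903 and 0.915 with NC 1 and NC 2 across the 10405 genes, against 0.974 between NC 1 and NC 2 and 0.953 to 0.962 among the tRF-Val libraries. Transcripts of the mitochondrial genome took 17.5% of the summed values of NC 3, but 6.33% of those of NC 1, 6.59% of those of NC 2 and 3.17% to 5.30% of those of the tRF-Val libraries. Fold changes across all genes also moved with transcript length, with a Spearman rho of -0.56 over 10405 genes and -0.32 over the 43, as descriptions across genes, which are not independent. Each value is an abundance scaled to the library by the authors, per transcript and with no read count, so the depth is unknown. The mouse values used here did not add to 1 common total. They summed to between 387026 and 389158 in NC and between 420640 and 444218 in tRF-Val, and the main fit did not rescale them. The proximal tubule markers Lrp2, Cubn, Slc34a1, Vil1 and Hnf4a were not listed, while Krt8, Krt18, Pax8, Cdh16 and Aqp1 were present. Of 14 proximal tubule and epithelial markers 8 were listed. Their summed value was 485 to 749 in NC and 864 to 959 in tRF-Val, so the groups did not overlap. Among all genes tested, 20.3% taken singly were higher in tRF-Val without overlap. Of 10 leukocyte markers 3 were listed, with a summed value of 2.60 to 3.76 over the 6 libraries. Of 8 fibroblast and synovial markers 2 were listed, with a sum of 0.85 to 1.76, and of 6 endothelial markers only Cdh5, at 6.25 to 8.03 in NC and 2.72 to 5.02 in tRF-Val. Ptprc, Pecam1 and Col1a1 were not listed. In bulk RNA, fewer cells of a kind and less RNA per cell cannot be told apart.

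Fold changes are differences of group means of log2(value + 1), positive where tRF-Val was higher, and ± gives the standard error unless SD is named. None of the 43 genes passed the test between tRF-Val and NC. In limma, with Benjamini-Hochberg adjustment over all 10405 genes and a threshold of 0.05, 0 were called in either direction, against 6 genes higher and 21 lower of all genes tested (0.0577% and 0.202%, together 0.259%). At this background no call among 43 genes is not a result about them. The lowest adjusted p was 0.134, for Lamp2. At an unadjusted p under 0.05, 2 of the 43 were higher in tRF-Val (Atg101 and Gabarapl2, against 12.2% of all genes) and 4 were lower (Optn, Lamp1, Lamp2 and Npc1, against 15.6%), so that 14.0% of the genes met it, against 27.8% of all genes. The 3 libraries of each group did not overlap in 12 of the 43 (27.9%), against 42.5% of all genes. In 5 of those tRF-Val was higher (Atg101, Gabarap, Gabarapl2, Hexa and Npc2; 20.3% of all genes) and in 7 it was lower (Atg14, Atg3, Atg12, Optn, Lamp1, Lamp2 and Npc1; 22.1% of all genes). The standard error of the log2 fold change ranged from 0.13 to 0.83 with a median of 0.29.

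**Figure D1:**
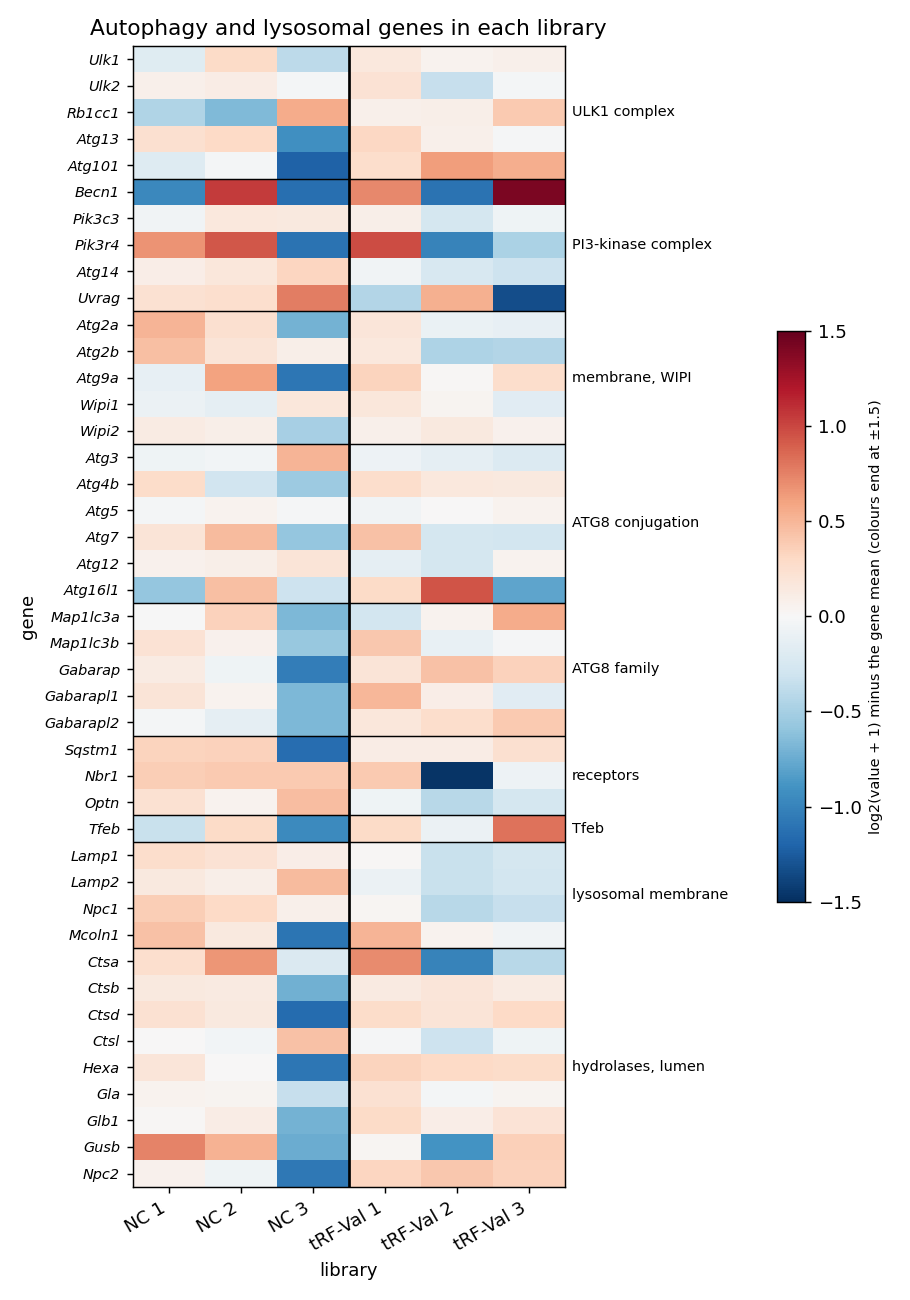
Level of each of the 43 genes in each library, as log2(value + 1) minus the mean of the gene over the 6 libraries, with genes in rows grouped by role and libraries in columns; red is above and blue below the gene's mean. The NC 3 column is the lowest library for 24 of the 43 genes and the highest for 10.

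The direction of several of these genes rested on library NC 3. It was the lowest of the 6 libraries in 24 of the 43 (55.8%), against 42.6% of all genes, and the highest in 10 (23.3%), against 25.9% of all genes. It was lowest in 16 of the 29 autophagosome genes and in 7 of the 13 lysosome genes; Tfeb was the other. Without NC 3, limma called 284 genes higher and 309 lower among all genes (2.73% and 2.97%, together 5.71%) and again 0 of the 43. The lowest adjusted p among them was then 0.0578, for Rb1cc1, and 9 (20.9%) had an unadjusted p under 0.05, against 35.7% of all genes. With library quality weights, a fit that did not converge and is not relied on, 6 of the 43 were called higher and 9 lower, against 22.5% and 31.5% of all genes (together 54%). The fold change changed sign without NC 3 in 8 genes, which were Atg13, Atg9a, Wipi2, Atg5, Map1lc3a, Map1lc3b, Sqstm1 and Mcoln1.

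The ULK1 initiation complex had 4 of its 5 genes higher in tRF-Val and a median log2 fold change of 0.25, which was 0.04 without NC 3. Atg101, whose product binds ATG13 and stabilises it in the complex, had values of 24.9, 27.96 and 11.8 in NC 1, 2 and 3 and of 34.5, 44.8 and 42.3 in tRF-Val 1, 2 and 3. Every tRF-Val library lay above every NC library, and the lowest was NC 3. The log2 fold change was 0.96 ± 0.33 (SE, n = 3 libraries a group; limma adjusted p = 0.138), and 0.59 without NC 3 (adjusted p = 0.0650). Corrected for transcript length and GC content it was 0.29.

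Rb1cc1 encodes FIP200, the scaffold of the ULK1 complex. Its values were 3.80, 3.14 and 8.66 in NC and 5.93, 5.97 and 7.58 in tRF-Val, so NC 3 was the highest library and NC 1 and NC 2 were the lowest. The log2 fold change was 0.37 ± 0.34 (adjusted p = 0.495) and 0.74 without NC 3. Ulk1, the kinase that opens the pathway, had 1.40, 2.30 and 1.08 in NC and 2.02, 1.82 and 1.85 in tRF-Val, with the groups overlapping and a log2 fold change of 0.19 ± 0.21 (adjusted p = 0.573). Atg13, the adaptor between the kinase and FIP200, and Ulk2, the second kinase, had log2 fold changes of 0.25 and -0.10.

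The class III PI3-kinase complex had 4 of its 5 genes lower in tRF-Val, with a median log2 fold change of -0.33 and of -0.34 without NC 3. After the length and GC correction the median was -0.10, and 2 of 5 genes were positive. At a minimum mean of 5 only Becn1 and Pik3c3 were left and their median was 0.26. Atg14, which directs the complex to the growing membrane, had 3.30, 3.53 and 4.02 in NC and 2.87, 2.41 and 2.24 in tRF-Val. The groups did not overlap, and the log2 fold change was -0.40 ± 0.17 (adjusted p = 0.180) and -0.17 after the length and GC correction. Uvrag, a subunit that replaces ATG14 in a form of the complex acting on later endosomes, had 3.11, 3.16 and 4.94 in NC and 1.58, 4.05 and 0.39 in tRF-Val. Its tRF-Val libraries spread on both sides of NC 1 and NC 2, and the log2 fold change was -0.83 ± 0.47 (adjusted p = 0.286).

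Pik3c3, the catalytic subunit VPS34, had 9.82, 11.6 and 11.4 in NC and 10.9, 8.37 and 9.77 in tRF-Val, with a log2 fold change of -0.16 ± 0.17 (adjusted p = 0.531). The groups overlapped within a narrow range. Becn1, the core scaffold beclin 1, was the least reproducible of the 43, at 1.94, 10.9 and 1.62 in NC and 8.46, 1.67 and 14.3 in tRF-Val. High and low libraries occurred in both groups, and its log2 fold change of 0.69 had a standard error of 0.83 and was 0.30 without NC 3. Pik3r4, the regulatory kinase VPS15, had a log2 fold change of -0.33 ± 0.71, and of -0.97 without NC 3.

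Among the membrane supply and WIPI genes 3 of 5 were higher in tRF-Val, with a median log2 fold change of 0.03, which was -0.04 without NC 3. It was -0.21 when values were rescaled without mitochondrially encoded transcripts, beside -0.20 over all genes. Atg2b, a lipid transfer protein that feeds the membrane, had 4.15, 3.32 and 3.01 in NC and 3.20, 1.73 and 1.77 in tRF-Val. Only tRF-Val 1 reached the NC range, and the log2 fold change was -0.50 ± 0.23 (adjusted p = 0.217) and -0.12 after the length and GC correction. Wipi2, which recruits the conjugation machinery, had 56.3, 55.2 and 36.5 in NC and 54.8, 57.3 and 54.3 in tRF-Val.

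For Wipi2 5 libraries lay close together and NC 3 below them, and the log2 fold change of 0.19 ± 0.20 (adjusted p = 0.539) became -0.01 without NC 3. Atg9a, the transmembrane lipid scramblase, had 2.78, 5.27 and 0.94 in NC and 4.18, 3.17 and 3.94 in tRF-Val. The NC libraries spanned the whole tRF-Val range, and the log2 fold change of 0.40 ± 0.42 (adjusted p = 0.543) was -0.04 without NC 3. Wipi1 and Atg2a had log2 fold changes of 0.03 and -0.02.

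The conjugation genes were split evenly, with 3 of 6 positive and a median log2 fold change of -0.03, which took either sign under the other scalings (-0.24 to 0.02). The -0.24 came from rescaling without mitochondrially encoded transcripts, under which the median of all genes was -0.20. After the length and GC correction the median was 0.20, with 4 of 6 positive. Atg4b, the protease that primes ATG8 proteins, had 7.78, 4.93 and 3.96 in NC and 7.67, 7.05 and 7.01 in tRF-Val. NC 1 was the highest library and the other 2 NC libraries the lowest, with a log2 fold change of 0.37 ± 0.24 (adjusted p = 0.338), 0.19 without NC 3 and 0.62 after the length and GC correction. Atg12, the ubiquitin-like protein joined to ATG5, had 20.7, 20.99 and 22.6 in NC and 17.9, 16.2 and 20.6 in tRF-Val. The groups did not overlap, although tRF-Val 3 lay just under NC 1, and the log2 fold change was -0.23 ± 0.15 (adjusted p = 0.341); corrected for transcript length and GC content it was 0.27.

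Atg3, the E2-like enzyme that passes ATG8 proteins to the membrane lipid, had 26.2, 26.8 and 39.6 in NC and 26.1, 24.99 and 23.8 in tRF-Val. NC 3 stood above the other 5, which lay within a narrow range, and the log2 fold change of -0.27 ± 0.19 (adjusted p = 0.382) was -0.08 without NC 3. Atg5 was the most even gene of the 43, from 18.7 to 20.2 over all 6 libraries, with a log2 fold change of 0.00 ± 0.13 and a 95% interval of -0.31 to 0.31. Atg7, the E1-like enzyme, and Atg16l1, which places the conjugate on the membrane, had log2 fold changes of -0.06 and 0.30.

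All 5 ATG8 family genes had positive fold changes with the 6 libraries, but only 3 of 5 did without NC 3 or when values were rescaled without mitochondrially encoded transcripts, and 4 of 5 after the length and GC correction. With that correction and no NC 3 only 1 of 5 was positive. Their median log2 fold change was 0.29, 0.02 without NC 3, and -0.11 with both changes, so its direction turned. Gabarapl2, also known as GATE-16, had 41.2, 37.9 and 25.9 in NC and 47.4, 50.6 and 55.3 in tRF-Val. Every tRF-Val library lay above every NC library, and the log2 fold change was 0.56 ± 0.20 (adjusted p = 0.150), 0.36 without NC 3 (adjusted p = 0.0836) and 0.52 after the length and GC correction. Gabarap had 132, 117 and 58.6 in NC and 139, 165 and 156 in tRF-Val. These groups also did not overlap, although NC 1 and tRF-Val 1 lay close, and the log2 fold change was 0.65 ± 0.32 (adjusted p = 0.227), 0.30 without NC 3 and 0.30 after the length and GC correction.

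Gabarapl1 had 25.2, 22.7 and 13.3 in NC and 31.4, 23.4 and 19.3 in tRF-Val, with a log2 fold change of 0.29 ± 0.29 (adjusted p = 0.535) and of 0.02 without NC 3. Map1lc3b, whose protein LC3B is the common marker of autophagosomes, had 22.8, 20.4 and 12.8 in NC and 26.1, 18.0 and 19.2 in tRF-Val. Leaving NC 3 aside, the groups of both genes overlapped, and the log2 fold change of Map1lc3b was 0.19 ± 0.26 (adjusted p = 0.649). Map1lc3a, which encodes LC3A, had a log2 fold change of 0.22.

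The cargo receptors differed among themselves. Sqstm1 had 187, 189 and 66.4 in NC and 159, 159 and 174 in tRF-Val. NC 1 and NC 2 were the highest libraries and NC 3 by far the lowest, so the log2 fold change of 0.30 ± 0.41 (adjusted p = 0.646) was -0.19 without NC 3. Optn, encoding optineurin, a receptor for ubiquitin-coated mitochondria and bacteria, had 32.3, 28.7 and 38.3 in NC and 26.3, 20.4 and 22.7 in tRF-Val.

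All tRF-Val libraries were below all NC libraries for Optn, with a log2 fold change of -0.50 ± 0.17 (adjusted p = 0.138), -0.39 without NC 3 (adjusted p = 0.119) and -0.51 after the length and GC correction. Nbr1, a receptor that works beside p62, had 17.6, 18.0 and 18.0 in NC and 17.9, 4.21 and 12.7 in tRF-Val. The NC libraries were nearly equal while tRF-Val 2 and 3 lay below them, and the log2 fold change was -0.77 ± 0.46 (adjusted p = 0.307).

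**Figure D2:**
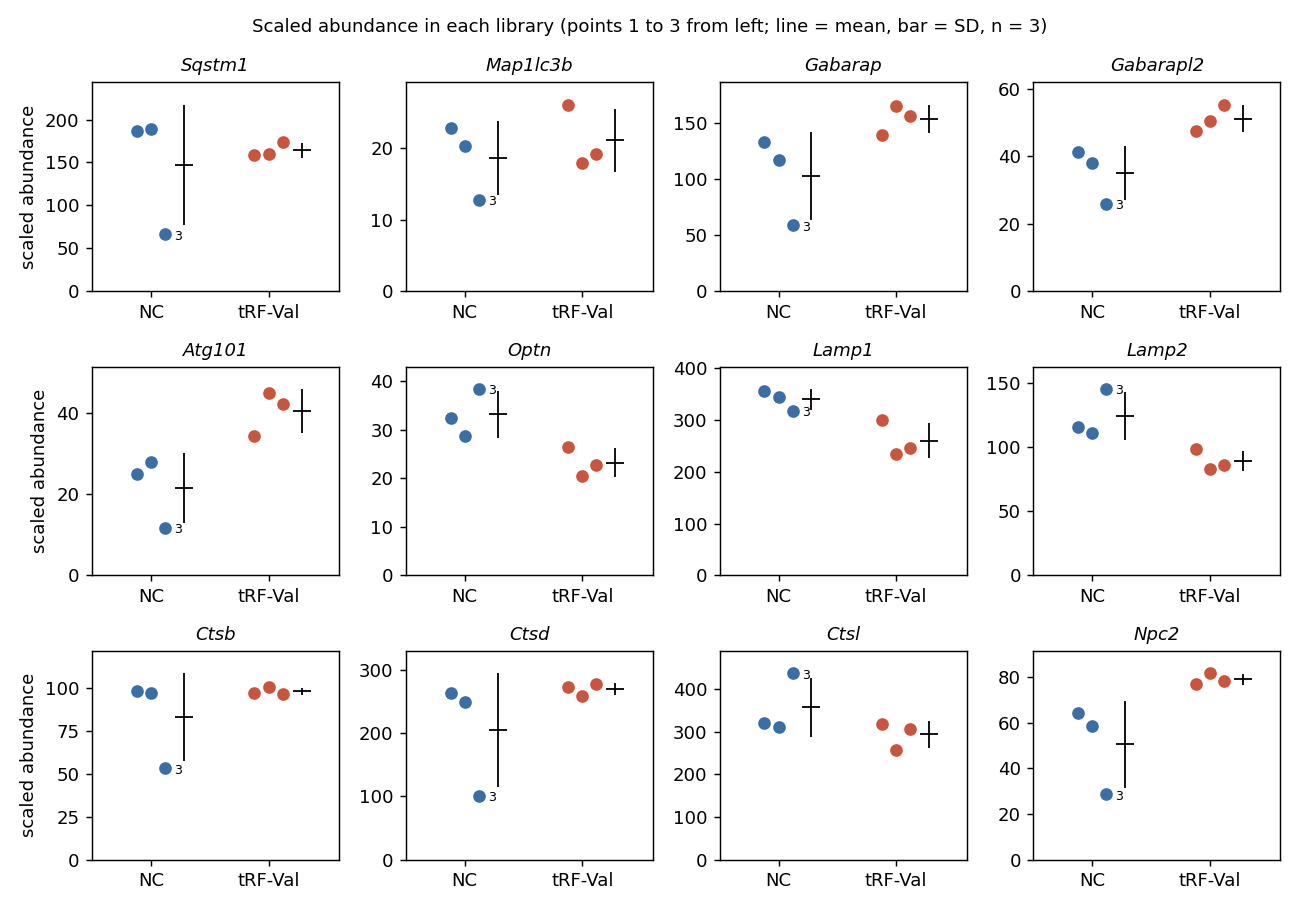
Scaled abundance of 12 of the genes in each library, NC in blue and tRF-Val in red, with points 1 to 3 from left to right, the horizontal line at the group mean and the bar at 1 SD (n = 3); NC 3 is marked with a 3. NC 3 is the lowest point for Sqstm1, Map1lc3b, Gabarap, Gabarapl2, Atg101, Ctsb, Ctsd and Npc2 and the highest for Lamp2, Optn and Ctsl, and the groups do not overlap for Atg101, Gabarap, Gabarapl2, Optn, Lamp1, Lamp2 and Npc2.

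Tfeb had 2.82, 4.92 and 1.49 in NC and 4.91, 3.54 and 7.48 in tRF-Val. NC 3 was lowest and tRF-Val 3 highest, the other libraries overlapped, and the log2 fold change was 0.67 ± 0.38 (adjusted p = 0.288), 0.36 without NC 3 and 0.21 after the length and GC correction. TFEB is known to be controlled largely by phosphorylation and entry into the nucleus, which these data do not measure.

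The lysosomal membrane genes and the luminal genes lay on opposite sides of 0. Of the 4 membrane genes, 3 were lower in tRF-Val without overlap of the groups, a pattern that 22.1% of all genes showed, and the median log2 fold change was -0.43, -0.39 without NC 3 and -0.18 after the length and GC correction. Of the 9 luminal genes, 6 were higher, and the median was 0.29, 0.03 without NC 3 and 0.21 after that correction. The difference between these 2 lists was not tested.

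Lamp2 and Lamp1 encode the most abundant glycoproteins of the lysosomal membrane. Lamp2 had 116, 111 and 145 in NC and 98.3, 83.1 and 86.3 in tRF-Val. NC 3 was the highest library, the groups did not overlap, and the log2 fold change was -0.47 ± 0.16 (95% interval -0.85 to -0.08; adjusted p = 0.134). It was -0.35 without NC 3 (adjusted p = 0.0879) and -0.20 after the length and GC correction.

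Lamp1 had 356, 344 and 317 in NC and 299, 234 and 246 in tRF-Val, mean 339 ± 20.0 against 260 ± 34.2 (SD, n = 3). The groups did not overlap, and NC 3 was the lowest of the NC libraries but above each tRF-Val library. The log2 fold change was -0.39 ± 0.15 (adjusted p = 0.162), -0.44 without NC 3 (adjusted p = 0.0865) and -0.53 after the length and GC correction. Npc1, the membrane protein that exports cholesterol from the lysosome, had 6.17, 5.79 and 4.83 in NC and 4.66, 3.14 and 3.35 in tRF-Val.

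The groups of Npc1 did not overlap, although NC 3 and tRF-Val 1 lay close together, and the log2 fold change was -0.49 ± 0.20 (adjusted p = 0.170), -0.58 without NC 3 and -0.15 after the length and GC correction. Lamp1, Lamp2 and Npc1 had a negative fold change in each alternative setting that could be computed, 17 for the first 2 and 16 for Npc1, whose mean was under 5. Mcoln1, the calcium channel TRPML1 of the lysosomal membrane, went the other way with a log2 fold change of 0.34 ± 0.42, which was -0.13 without NC 3.

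Npc2, the soluble partner that hands cholesterol to NPC1, had 64.3, 58.5 and 28.6 in NC and 76.9, 81.6 and 78.3 in tRF-Val. The groups did not overlap and NC 3 was the lowest library. The log2 fold change was 0.72 ± 0.31 (adjusted p = 0.193), 0.36 without NC 3 (adjusted p = 0.0653) and 0.82 after the length and GC correction, and it was positive in all 17 alternatives. Npc1 and Npc2 thus had fold changes of opposite sign, neither past the threshold.

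Hexa, the alpha subunit of beta-hexosaminidase, had 15.2, 13.3 and 5.69 in NC and 16.9, 16.4 and 16.1 in tRF-Val. The tRF-Val libraries were nearly equal and above every NC library, and the log2 fold change was 0.60 ± 0.34 (adjusted p = 0.290), 0.20 without NC 3 and 0.27 after that correction. Glb1, the lysosomal beta-galactosidase, had 19.6, 21.1 and 11.5 in NC and 23.9, 20.9 and 22.5 in tRF-Val, with a log2 fold change of 0.39 ± 0.25 (adjusted p = 0.326) and of 0.13 without NC 3. Its groups overlapped through NC 2 and tRF-Val 2.

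The cathepsins, the proteases of the lysosome, differed in where NC 3 lay. Ctsd, the aspartic protease cathepsin D, had 264, 248 and 100.5 in NC and 273, 258 and 277 in tRF-Val. Ctsb, the cysteine protease cathepsin B, had 98.2, 96.8 and 53.1 in NC and 96.7, 100.4 and 96.4 in tRF-Val.

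In both genes 5 libraries were nearly level and NC 3 alone lay far below them. The log2 fold change of Ctsd was 0.52 ± 0.38 (adjusted p = 0.389) and 0.07 without NC 3, and that of Ctsb was 0.29 ± 0.26 (adjusted p = 0.473) and 0.00 without NC 3. Ctsl, the cysteine protease cathepsin L, had 321, 312 and 437 in NC and 317, 257 and 305 in tRF-Val. Here NC 3 was the highest library, and the log2 fold change was -0.27 ± 0.19 (adjusted p = 0.365) and -0.11 without NC 3. Ctsa, Gla and Gusb had log2 fold changes of -0.46, 0.16 and -0.34, and Ctsa was the lowest gene of the 43 with a mean of 1.17 and a value of 0 in tRF-Val 2. Only Ctsa-210 (659 bases) and Ctsa-215 (684 bases, annotated as a processed transcript) were listed for Ctsa. Ctsa-201, named with the promoters above, had no value, so the Ctsa fold change covers these short forms alone.

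**Figure D3:**
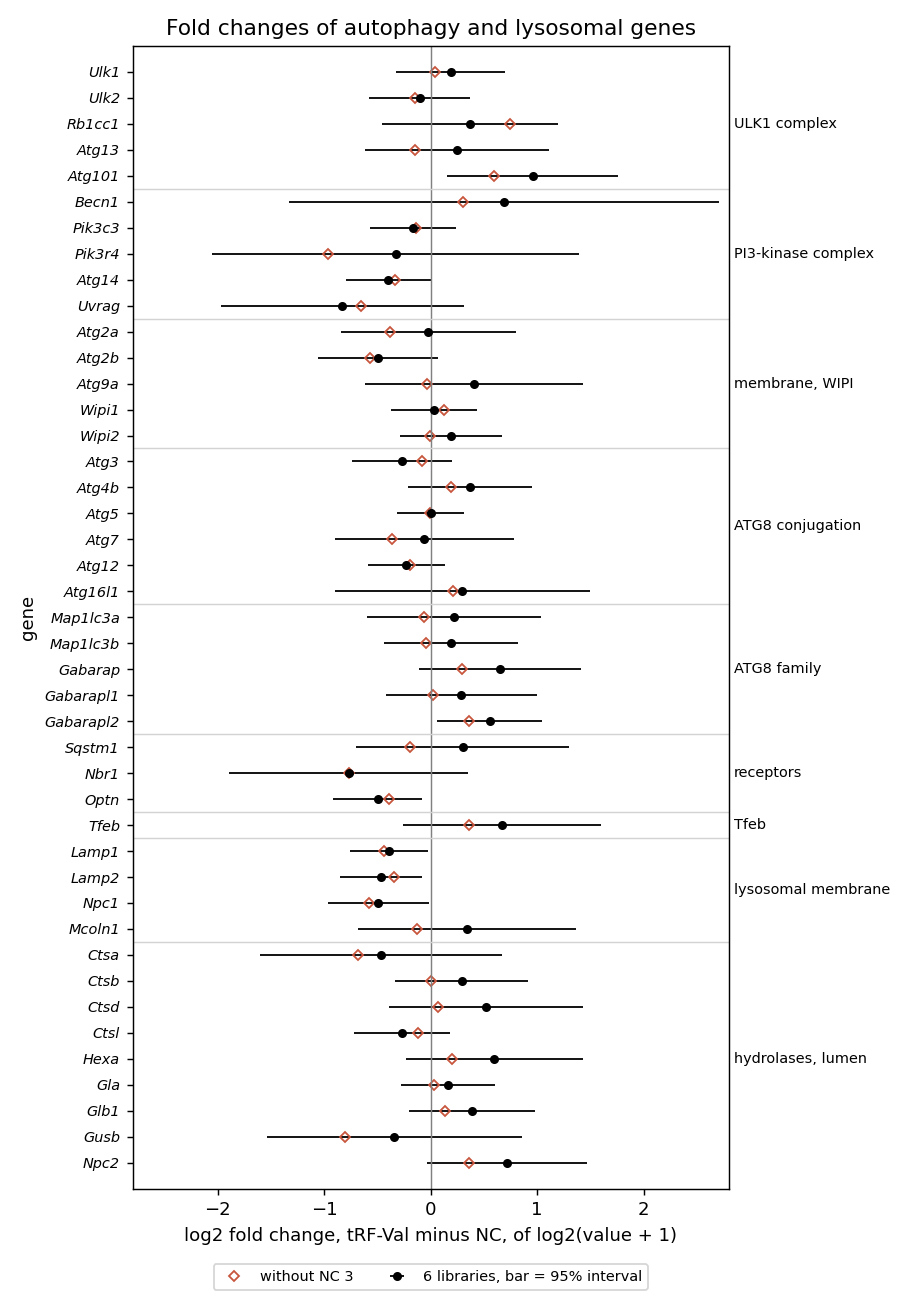
Log2 fold change of each of the 43 genes, the tRF-Val mean of log2(value + 1) minus that of NC, as black points with 95% intervals for the 6 libraries and as open red diamonds without NC 3. Estimates range from -0.83 for Uvrag to 0.96 for Atg101; without NC 3 the sign changes for 8 genes, and Lamp1, Lamp2 and Npc1 lie between -0.58 and -0.35.

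Autophagosome and lysosome genes as classes had nearly the same median. The median log2 fold change was 0.19 over the 29 autophagosome genes, 17 of them positive, and 0.16 over the 13 lysosome genes, 7 of them positive, beside 0.01 over all 10405 genes. The difference, lysosome minus autophagosome, was -0.03, less than the spread of that difference between libraries of a group (pooled SD 0.12). Without NC 3 the medians were -0.06 and -0.11, beside -0.08 over all genes, so both classes then lay near the middle of all genes. After the length and GC correction they were 0.08 and -0.15, beside 0.03.

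In NC 1, NC 2 and NC 3 the class median of log2(value + 1), each gene centred on its mean, was 0.10, 0.16 and -0.49 for autophagosome genes. For lysosome genes it was 0.18, 0.13 and -0.71, and for all genes 0.11, 0.08 and -0.14. In tRF-Val 1, 2 and 3 it was 0.17, 0.02 and -0.02 for autophagosome genes, 0.23, -0.03 and 0.04 for lysosome genes, and 0.07, -0.02 and 0.00 for all genes. NC 3 was thus the only library in which both classes lay far from the others, and the other 5 libraries of the 2 groups overlapped. The share of mitochondrially encoded transcripts was highest in the same library, and its part in these medians was not tested beyond the rescaling without those transcripts, under which the medians were -0.06 for both classes and -0.20 for all genes.

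**Figure D4:**
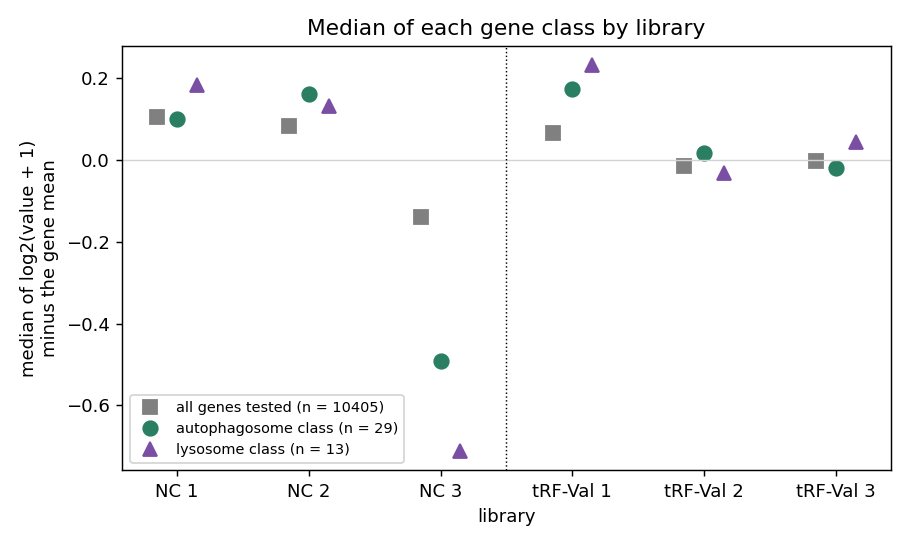
Median over genes of log2(value + 1) minus the gene's mean, by library, for all genes tested (grey squares, n = 10405), the autophagosome class (green circles, n = 29) and the lysosome class (purple triangles, n = 13). Both classes are at -0.49 and -0.71 in NC 3 and between -0.03 and 0.23 in the other 5 libraries.

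The genes with and without the E-box shown above were also set side by side. Of the 9 genes with TCACGTG in the promoter (Atg14, Atg3, Atg7, Lamp1, Mcoln1, Ctsa, Ctsd, Gla and Glb1), 4 had a positive fold change, the median was -0.06, and NC 3 was the lowest library in 5. Of the 26 tested genes with a promoter and no such match, 16 were positive, the median was 0.19, and NC 3 was lowest in 16. These are descriptions, and the difference was not tested.

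Values of single transcripts gave a finer view. Of 81 listed transcripts of the 43 genes 67 had a mean of at least 1, and limma over 16320 transcripts called 0 of them higher and 1 lower, against 0.3% and 0.839% of all transcripts. The 1 was Atg14-201, which had 3.30, 3.53 and 4.02 in NC and a listed value of 0 throughout the tRF-Val group (limma adjusted p = 0.0216). Its partner Atg14-202 was listed at 0 in each NC library and had 2.87, 2.41 and 2.24 in tRF-Val (adjusted p = 0.0595). The deposited values thus assign the gene to one transcript in NC and to the other in tRF-Val. Atg14 was picked out after its values were seen, since its mean lay under the level at which isoforms were to be described. Atg14-201 met the minimum mean only through NC, and Atg14-202 only through tRF-Val. Equal zeros also leave no spread in the other group, so these p-values are not used as support. Zeros were not evenly spread over the libraries. The count of mouse transcripts listed at 0 ran from 1083 for NC 1 to 3064 for tRF-Val 2. Each tRF-Val library held more such zeros than NC 1 or NC 2, while NC 3, at 2191, held more than tRF-Val 1, at 1999. The part of this unevenness in the Atg14 zeros was not tested.

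In M21, on GRCm38, Atg14 lies on the minus strand of chromosome 14. Atg14-201 ends at 47540894 and starts at 47568434, inside the stretch printed above. Atg14-202 starts upstream with an extra untranslated exon, chr14:47570569-47570649, and then reads through that start site, so the printed motif is in its untranslated region. Both transcripts carry the same coding exons with 1479 coding bases including the stop codon, so the annotated protein is the same. The transcripts share nearly all of their bases, and how reads were divided between them by the authors' software is not given in the sources used here. A complete exchange of this kind, with over 50% of a gene in all 3 libraries of a group and under 5% in all 3 of the other, was found in 19 of 5426 genes with at least 2 listed transcripts (0.35%) and in 1 of the 24 such genes here.

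Atg2b, also picked after its values were seen, came close to this. Atg2b-201, the full-length form with 6228 coding bases, had 2.54, 2.32 and 2.37 in NC and 0.36, 0.06 and 0.05 in tRF-Val, a mean share of 69.8% of the gene against 5.88% (transcript adjusted p = 0.0759). The rest was Atg2b-203, annotated with the start of its mRNA not found, at 1.61, 1.00 and 0.65 in NC and 2.84, 1.67 and 1.73 in tRF-Val. The groups did not overlap in either form, and the shift was opposite in direction between the 2 forms. For Atg2b-203, however, NC 1 and tRF-Val 2 lay close together and the limma adjusted p was 0.341. In M21 Atg2b-203, with 21 exons, lies within the span of Atg2b-201, with 42. How reads were divided between them is not known.

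Lamp2 has 3 transcripts with alternative last exons, which encode different transmembrane and cytoplasmic ends; the isoform LAMP-2A is known for its part in chaperone-mediated autophagy. The names of these protein forms are not in the annotation used here, so transcripts are given by number. Lamp2-202, with its last exon at chrX:38419507-38421851, had 51.8, 53.5 and 70.5 in NC and 36.3, 28.6 and 37.0 in tRF-Val. The groups did not overlap, and the log2 fold change was -0.76 (adjusted p = 0.141). Lamp2-201, with its last exon at chrX:38405062-38405571, had 61.2, 56.0 and 71.0 in NC and 59.9, 53.4 and 47.7 in tRF-Val, which overlapped, with a log2 fold change of -0.22. The share of Lamp2-202 was 47.1% in NC and 38.1% in tRF-Val, that of Lamp2-201 50.7% and 60.2%, and that of Lamp2-203 2.20% and 1.71%.

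Shares of transcripts also differed in other genes. For Nbr1, Nbr1-203 had 2.07, 2.23 and 3.70 in NC but 0 in all 3 tRF-Val libraries (adjusted p = 0.0702), while Nbr1-206 made up 58.8%, 3.86% and 98.5% of the gene in tRF-Val 1, 2 and 3. For Gusb, encoding beta-glucuronidase, Gusb-201 made up 65.4%, 55.6% and 11.9% of the gene in the NC libraries and 51.0%, 4.22% and 9.89% in the tRF-Val ones. The groups were thus apart for Nbr1-203, while the shares of Nbr1-206 and Gusb-201 varied widely between libraries of the same group. Nbr1-203 met the minimum mean only through NC, so its p-value is not used as support. The uneven spread of zeros over libraries, given above for Atg14, is a limit for Nbr1-203 as well.

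The minor form Ctsd-201 made up 11.1%, 12.3% and 41.3% of Ctsd in NC and 0%, 10.4% and 14.3% in tRF-Val, so NC 3 and tRF-Val 1 stood apart from the other 4. Optn-201 made up 20.2%, 12.7% and 51.4% of Optn in NC and 13.7%, 14.4% and 20.6% in tRF-Val, again with NC 3 apart. Mcoln1-201 made up 62.4%, 69.2% and 76.9% of Mcoln1 in NC and 66.7%, 53.3% and 46.2% in tRF-Val, with overlap.

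**Figure D5:**
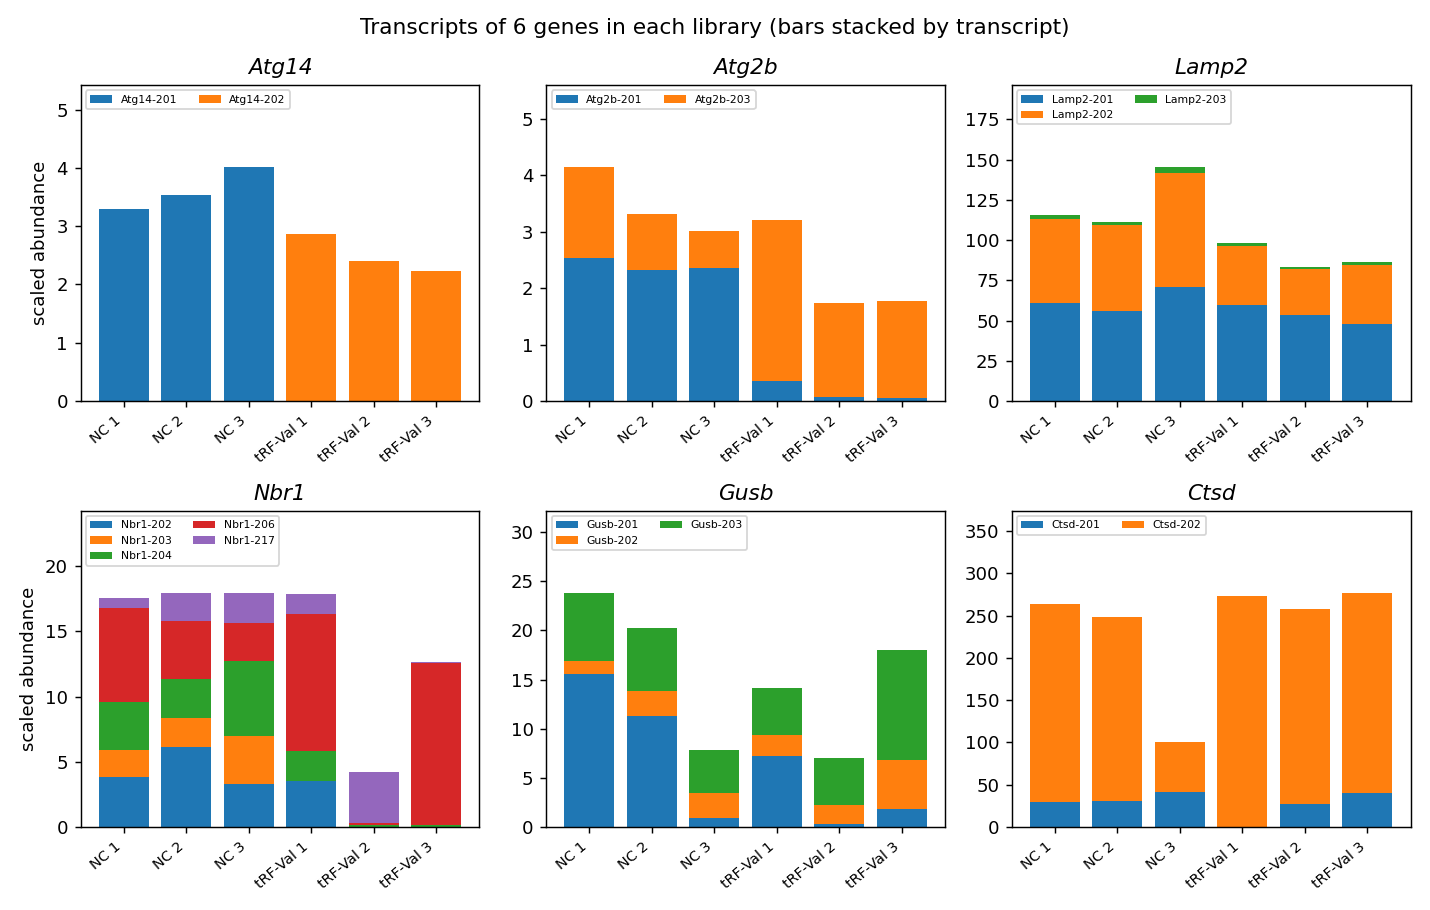
Scaled abundance of each listed transcript of 6 genes in each library, as stacked bars whose height is the value of the gene. Atg14 is made up of Atg14-201 alone in NC and of Atg14-202 alone in tRF-Val, Atg2b-201 drops from 2.32 or more to 0.36 or less, and the make-up of Nbr1 and Gusb differs between libraries of the same group.

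Genes of the same pathways outside the 44 were read from the same fit. Of 28 further autophagy genes, all tested, 12 were positive and 0 were called, with a median log2 fold change of -0.11. That median was -0.21 without NC 3 and 0.07 after the length and GC correction. Vamp8, a SNARE of autophagosome and lysosome fusion, had 55.4, 52.4 and 35.2 in NC and 85.7, 92.8 and 96.3 in tRF-Val. All tRF-Val libraries were above all NC libraries, with a log2 fold change of 0.95 ± 0.20 (adjusted p = 0.0861), 0.75 without NC 3 (adjusted p = 0.0352) and 0.23 after the length and GC correction. Atg4c, a protease of the family of Atg4b, had 3.61, 3.36 and 2.74 in NC and 1.83, 1.88 and 1.53 in tRF-Val (log2 fold change -0.62 ± 0.17, adjusted p = 0.101; -0.33 after that correction). Vps41, a subunit of the HOPS tether of lysosome fusion, had 19.6, 19.4 and 24.3 in NC and 16.8, 11.4 and 12.3 in tRF-Val (log2 fold change -0.62 ± 0.20, adjusted p = 0.121; -0.34 after that correction). For both, the tRF-Val libraries were the 3 lowest.

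Of 41 further lysosomal genes 37 were listed and tested, 27 were positive and 0 called, with a median of 0.16. Without NC 3 the median was -0.08, beside -0.08 over all genes, and after the length and GC correction it was 0.17. Tmem192, a lysosomal membrane protein, had 17.1, 13.9 and 11.9 in NC and 30.6, 26.0 and 30.4 in tRF-Val, for a log2 fold change of 0.98 ± 0.18 (adjusted p = 0.0706), and 0.86 without NC 3 (adjusted p = 0.0431) and 0.40 after the length and GC correction. Igf2r, the mannose 6-phosphate receptor that carries hydrolases to the lysosome, had 6.38, 6.05 and 5.18 in NC and 3.61, 2.58 and 2.53 in tRF-Val, for a log2 fold change of -0.82 ± 0.19 (adjusted p = 0.0893) and of -0.41 after that correction. Asah1, acid ceramidase, had 50.7, 40.6 and 57.3 in NC and 30.4, 11.04 and 13.5 in tRF-Val, for a log2 fold change of -1.51 ± 0.38 (adjusted p = 0.0939). In these 3 genes the groups did not overlap, with the membrane protein gene Tmem192 higher in tRF-Val and Igf2r and Asah1 lower.

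All 16 genes of the V-ATPase, the proton pump that acidifies the lysosome, were tested, with 10 positive, 0 called and a median of 0.27. This median became -0.07 without NC 3 and 0.06 after the length and GC correction. Atp6v1a, its catalytic subunit, had 38.2, 41.9 and 42.2 in NC and 27.0, 23.5 and 25.6 in tRF-Val, for a log2 fold change of -0.66 ± 0.13 (adjusted p = 0.0828), and -0.64 without NC 3 (adjusted p = 0.0444). Atp6v1f had 88.0, 85.6 and 34.2 in NC and 114, 147 and 128 in tRF-Val, for a log2 fold change of 1.01 ± 0.38 (adjusted p = 0.156) and of 0.57 without NC 3. Subunits of the same sector thus had fold changes of opposite sign; after the length and GC correction they were -0.27 and 0.24. Atp6v1h, a regulatory subunit, had 45.3, 46.6 and 47.3 in NC and 45.8, 29.1 and 33.2 in tRF-Val, which overlapped (log2 fold change -0.38 ± 0.19, adjusted p = 0.238).

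Of 27 regulators around mTORC1, the kinase on the lysosome that restrains ULK1 and TFEB, 25 were tested, 17 were positive and 0 called. Their median was 0.25, -0.06 without NC 3 and 0.18 after the length and GC correction. Mitf was not listed and Deptor had a mean under 1. Fnip1, a partner of folliculin, had 6.89, 6.70 and 9.24 in NC and 4.19, 3.28 and 3.87 in tRF-Val, for a log2 fold change of -0.84 ± 0.19 (adjusted p = 0.0892) and of -0.23 after the length and GC correction. Lamtor2 and Lamtor1 encode parts of Ragulator, the scaffold that holds mTORC1 at the lysosome. Lamtor2 had 57.3, 39.5 and 29.1 in NC and 81.0, 85.5 and 87.8 in tRF-Val, for a log2 fold change of 1.05 ± 0.25 (adjusted p = 0.0899) and 0.23 after the length and GC correction.

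Lamtor1 had 40.8, 44.2 and 17.3 in NC and 66.9, 83.4 and 77.7 in tRF-Val, for a log2 fold change of 1.24 ± 0.36 (adjusted p = 0.111), 0.82 without NC 3 (adjusted p = 0.0413) and 0.55 after that correction. No group of these 3 genes overlapped the other. Without NC 3 limma called 7 genes of the 4 further lists higher, Vamp8, Tpp1, Ppt1, Tmem192, Lamtor1, Lamtor4 and Prkag1, and 1 lower, Atp6v1a. The lists held 28, 37, 16 and 25 tested genes. In that fit 2.73% of all genes were called higher and 2.97% lower, together 5.71%. Transcripts of Lamtor1 (1119 bases), Lamtor2 (654 bases) and Vamp8 (839 bases) are short beside the median of 2795 bases over all genes tested, and fold changes across all genes moved with length as given above.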

How the data were processed

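RNA-seq of 6 BUMPT libraries was used, grouped by the sample titles. Libraries were made with a stranded dUTP kit from Trizol RNA, per the labels' protocols; that text speaks of joint tissue, while the sample labels name the kidney line and were followed. The submitters' processing notes name cutadapt, HISAT2 2.1.0, StringTie and, as the build, the human GRCh38, with no settings. The deposited signal is an abundance per transcript scaled to the library by the authors; FPKM and TPM are both possible, and with no counts no interval or limit from depth is given. Of 30813 rows 9210 carried human IDs and were not used; of 21603 mouse rows 21558 matched GENCODE M21. Every listed mouse transcript reaches a group mean of 0.5, so gene sums leave out lower ones.

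The fit was made on log2(value + 1) by limma 3.58.1 under R 4.3.3 (trend and robust moderation, both groups, no covariate, two-sided, Benjamini-Hochberg, threshold 0.05), and the script was tested on simulated data. Fold changes on this scale understate low genes. No permutation test is given, since the smallest exact p for groups of 3 is 0.1. The length and GC correction removed each library's loess trend (span 0.3); 5 tested genes had no GC content.

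The genes and lists were chosen with earlier results of these data known. Values in every library are given for up to 3 genes of each list with the smallest unadjusted p and for 9 common readouts (Sqstm1, Map1lc3b, Gabarapl1, Tfeb, Lamp1, Lamp2, Ctsb, Ctsd, Ctsl); Becn1 was added after its values were seen. Isoforms are given for the 6 genes with a mean of at least 5 and the largest shift in share. Alternatives were other pseudocounts, filters, scalings, moderation and weights, the replicate number as a block, and each library left out. A marker gene of the lists is not reported here.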

Additional observations from a re-analysis of the deposited data

How the results depend on the processing

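The counts of calls, the class medians and the fold changes of the 43 genes were recomputed under up to 17 alternative settings; transcript and promoter results were not. The counts over all genes, 6 higher and 21 lower, were 2 and 3 with a pseudocount of 0.1, 1 and 1 for genes with a mean of at least 5, 15 and 23 with median scaling, in which higher calls were 39.5% of calls in place of 22.2%, 22 and 49 with quantile normalization (31.0% higher), 23 and 186 when rescaled without mitochondrially encoded transcripts (11% higher), 10 and 18 with the length and GC correction (35.7% higher), 46 and 65 with that correction and no NC 3, and 9 and 38 without trend and robust moderation. Without 1 library they ranged from 0 to 284 higher and from 3 to 309 lower: 1 and 3 without NC 1, 0 and 6 without NC 2, 284 and 309 without NC 3, 5 and 39 without tRF-Val 1, and 0 and 4 without tRF-Val 2 and without tRF-Val 3. Rescaling without mitochondrially encoded transcripts moved the median log2 fold change of all genes from 0.01 to -0.20.

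None of the 43 genes was called in these settings. Library quality weights called 2340 and 3280 genes (22.5% and 31.5%, together 54%), among them 6 of the 43 higher (Atg101, Atg4b, Gabarap, Gabarapl2, Npc2, Rb1cc1) and 9 lower (Atg14, Atg2b, Atg7, Ctsa, Lamp1, Lamp2, Npc1, Optn, Pik3r4), with an autophagosome median of -0.18; the weights did not converge, so these calls are not relied on. The lysosome minus autophagosome difference of -0.03 was -0.23 with the length and GC correction, -0.19 with that correction and no NC 3, and from -0.052 (without NC 3) to 0.17 without 1 library. The cause of these moves was not tested.

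With the replicate block the counts were 0 and 0 over all genes, with 2 of the 43 (4.65%) at an unadjusted p under 0.05 in limma, against 23.6% of all genes. Deviations of same-numbered libraries from their group means had r of -0.03, 0.02 and -0.01. With groups of 3 and NC 3 apart from the others, such values cannot exclude a shared batch. The labels name none. Depth is unknown and groups are of 3, so small changes of single genes, such as those within the 95% interval of -0.31 to 0.31 for Atg5, cannot be resolved here.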
